A study of Mus musculus with 42 samples.

Results

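The genes that build, load, sense and clear GABA and glycine were examined in mouse brain tissue, as 30 genes taken by gene symbol from tables of 37410 genes for the lateral habenula (LHb) and of 40905 genes for 5 other regions. All 30 symbols were found in both tables. They comprised 12 subunits of the ionotropic GABA-A receptor, 2 subunits of the metabotropic GABA-B receptor, 3 genes of GABA synthesis and vesicular loading, 3 of GABA uptake and breakdown, 4 glycine receptor subunits, 2 glycine transporters, 2 scaffold or adhesion genes and 2 chloride cotransporters. Poly(A) RNA was sequenced from 42 libraries in 14 groups of 3. The mice had either been through chronic restraint stress (CRS), in which animals are immobilised repeatedly to model depression, or were naive. Immobility of every mouse had been scored in a forced swim test (FST), 2 days before the tissue was taken. In LHb the 12 libraries were divided into naive mice with low FST scores (immobility under 50 s), naive mice with high scores (50 to 80 s), CRS mice with low scores (50 to 110 s) and CRS mice with high scores (over 110 s). For the medial prefrontal cortex (mPFC), lateral hypothalamus (LH), ventral hippocampus (vHippo), nucleus accumbens (NAc) and ventral tegmental area (VTA) there were 3 CRS and 3 naive libraries each, for which the labels give no FST class. The labels give no strain, sex or age, and do not say whether replicates are separate animals or pools, so p-values measure only the spread between these samples. Total counts ran from 56459734 to 79849567 in LHb libraries and from 53143878 to 81384893 in the others.

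GABA is made from glutamate by the glutamate decarboxylases Gad1 and Gad2 and is packed into vesicles, together with glycine, by the transporter Slc32a1. Released GABA opens GABA-A receptors, chloride channels of mixed subunits whose alpha, gamma, delta, epsilon and theta members set where the receptor sits and how it responds to drugs, and it activates GABA-B receptors, obligate pairs of Gabbr1 and Gabbr2 that couple to potassium channels. Glycine opens a related chloride channel built of alpha subunits and Glrb. Gephyrin (Gphn) and neuroligin 2 (Nlgn2) hold these receptors at inhibitory synapses. The direction of the chloride current depends on Slc12a5, which exports chloride from mature neurons, and on Slc12a2, which imports it. LHb is made mostly of glutamatergic neurons and takes much of its inhibition from outside inputs, whereas NAc projection neurons are themselves GABAergic and LH and VTA hold mixed populations.

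Promoter windows from RefSeq (GRCm38.p6), running from 250 bases before to 50 bases after an annotated start, were found for 26 of the 30 genes, in 36 windows. The windows of Gad1, Gad2 and Slc32a1 are shown because these genes of GABA supply were lowest in LHb and highest in LH, those of Gabra4 and Gabrb1 because the genes lie head to head and overlap, and that of Gabrb2 because it differed between LHb groups. Capitals mark motif matches. They are TATAAA (the TATA box core, read as TTTATA where it is on the other strand) in Gad1 and Gabrb2, and the core of the binding motif of the repressor REST in Gad2. Positions are GRCm38, and each sequence is written 5′ to 3′ on the gene's own strand.
Gad1, chr2:70561879-70562178, plus strand: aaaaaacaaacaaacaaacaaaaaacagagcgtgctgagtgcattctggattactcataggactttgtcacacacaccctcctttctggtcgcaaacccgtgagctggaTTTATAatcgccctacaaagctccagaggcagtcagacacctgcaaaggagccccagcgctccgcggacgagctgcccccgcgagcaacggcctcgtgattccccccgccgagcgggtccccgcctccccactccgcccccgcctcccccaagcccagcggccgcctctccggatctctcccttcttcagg
Gad2, chr2:22622077-22622376, plus strand: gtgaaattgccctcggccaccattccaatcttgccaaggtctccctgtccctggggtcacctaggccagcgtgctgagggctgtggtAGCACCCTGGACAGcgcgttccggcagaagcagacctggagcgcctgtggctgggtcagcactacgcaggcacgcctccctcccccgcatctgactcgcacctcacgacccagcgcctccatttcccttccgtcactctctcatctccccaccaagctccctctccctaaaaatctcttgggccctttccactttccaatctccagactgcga
Slc32a1, chr2:158610508-158610807, plus strand: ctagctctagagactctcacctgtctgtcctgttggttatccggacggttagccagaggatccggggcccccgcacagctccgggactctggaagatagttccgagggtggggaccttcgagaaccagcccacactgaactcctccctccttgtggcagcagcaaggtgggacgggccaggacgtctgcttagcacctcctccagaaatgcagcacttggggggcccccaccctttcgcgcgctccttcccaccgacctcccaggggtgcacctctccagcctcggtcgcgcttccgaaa
Gabra4, chr5:71658259-71658558, minus strand: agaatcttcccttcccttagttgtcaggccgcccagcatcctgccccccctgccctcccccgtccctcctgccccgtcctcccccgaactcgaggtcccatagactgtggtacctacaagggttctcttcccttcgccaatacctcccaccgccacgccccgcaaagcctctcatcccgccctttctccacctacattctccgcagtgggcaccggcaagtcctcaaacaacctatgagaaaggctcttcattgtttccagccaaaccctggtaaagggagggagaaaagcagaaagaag
Gabrb1, chr5:71657671-71657970, plus strand, the most upstream of 2 windows: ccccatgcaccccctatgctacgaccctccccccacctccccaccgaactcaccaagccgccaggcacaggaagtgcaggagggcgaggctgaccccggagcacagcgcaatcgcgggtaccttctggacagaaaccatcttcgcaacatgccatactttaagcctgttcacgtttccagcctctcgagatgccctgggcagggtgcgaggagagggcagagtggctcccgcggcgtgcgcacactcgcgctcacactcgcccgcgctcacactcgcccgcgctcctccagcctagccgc
Gabrb2, chr11:42420190-42420489, plus strand, the most upstream of 3 windows: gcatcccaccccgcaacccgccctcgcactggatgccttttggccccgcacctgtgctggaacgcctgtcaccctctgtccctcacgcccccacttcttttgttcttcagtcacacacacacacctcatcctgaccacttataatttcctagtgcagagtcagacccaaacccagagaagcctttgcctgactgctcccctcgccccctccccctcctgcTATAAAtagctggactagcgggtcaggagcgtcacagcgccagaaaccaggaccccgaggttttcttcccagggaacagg
Both strands of 32851 promoter windows of the same length were searched. The REST core was in 17 of them (0.0517%), among the 30 genes in Gad2 alone. TATAAA was in 13.6% of all windows and in those of Gabra3, Gabrb2, Gad1 and Glra2. The letters TGACGTCA (a cyclic AMP response element) were in 1.79% of all windows and in none of the 36, and TAATTA (a homeodomain core) in 5.29% and in that of Gabrg1. A match is a description of the letters, and none of these windows was assayed here.

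Several libraries stood apart on these genes or on marker genes of other cells, and their values are given first. The third CRS library of mPFC had Gad1 at 209 FPKM (fragments scaled by transcript length and by library depth) against 25.6 to 34.5 in the other 5 mPFC libraries. It also had a summed level of 6 habenular marker genes of 185 FPKM against 11.2 to 18.1, and of 6 cortical excitatory markers of 150 FPKM against 276 to 399. The third naive mPFC library had a leptomeningeal marker sum of 62.9 FPKM against 1.35 to 14.8, and the third naive VTA library a hindbrain marker sum of 1.81 FPKM against 0.0115 to 0.132. The second naive VTA library had a dopamine neuron marker sum of 52.8 FPKM against 272 to 1411. The first naive NAc library had a cortical excitatory sum of 259 FPKM against 2.56 to 99.2. The second naive LH library had a hypothalamic sum of 206 FPKM against 925 to 2055 and an interneuron sum of 633 FPKM against 170 to 202. In LHb, 4 libraries held transcripts of 6 pancreatic marker genes summing to 239 to 439 FPKM, against at most 0.721 in the other 8, and 3 others held choroid plexus markers summing to 2890 to 7051 FPKM against 10.5 to 101. Habenular markers summed to 722 to 1005 FPKM in every LHb library.

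The 30 genes differed widely in level and in the region where they were highest. By the means of naive libraries, and leaving out Gabra6, LH was highest for 10 genes, VTA for 7, NAc for 4, LHb and vHippo for 3 each and mPFC for 2, of which Slc6a13 was high in 1 mPFC library. Over all libraries of a region, the spread of region means was smallest for Nlgn2, from 29.3 FPKM in VTA to 39.7 in LHb, and for Gphn, from 12.9 FPKM in LHb to 21.0 in NAc. It was wide for Slc32a1, whose highest region mean was 53.7 times its lowest, for Gad1 (36.4 times) and for Gad2 (22.1 times), in each case from LHb to LH. LHb was normalised apart from the other regions, in its own table, so levels set across the 2 tables are descriptions with no test. Gabra6, an alpha subunit gene known from cerebellar granule cells, had a count of 0 in 28 of the 42 libraries and at most 29 counts in any other, so no fold is given for it.

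**Figure D1:**
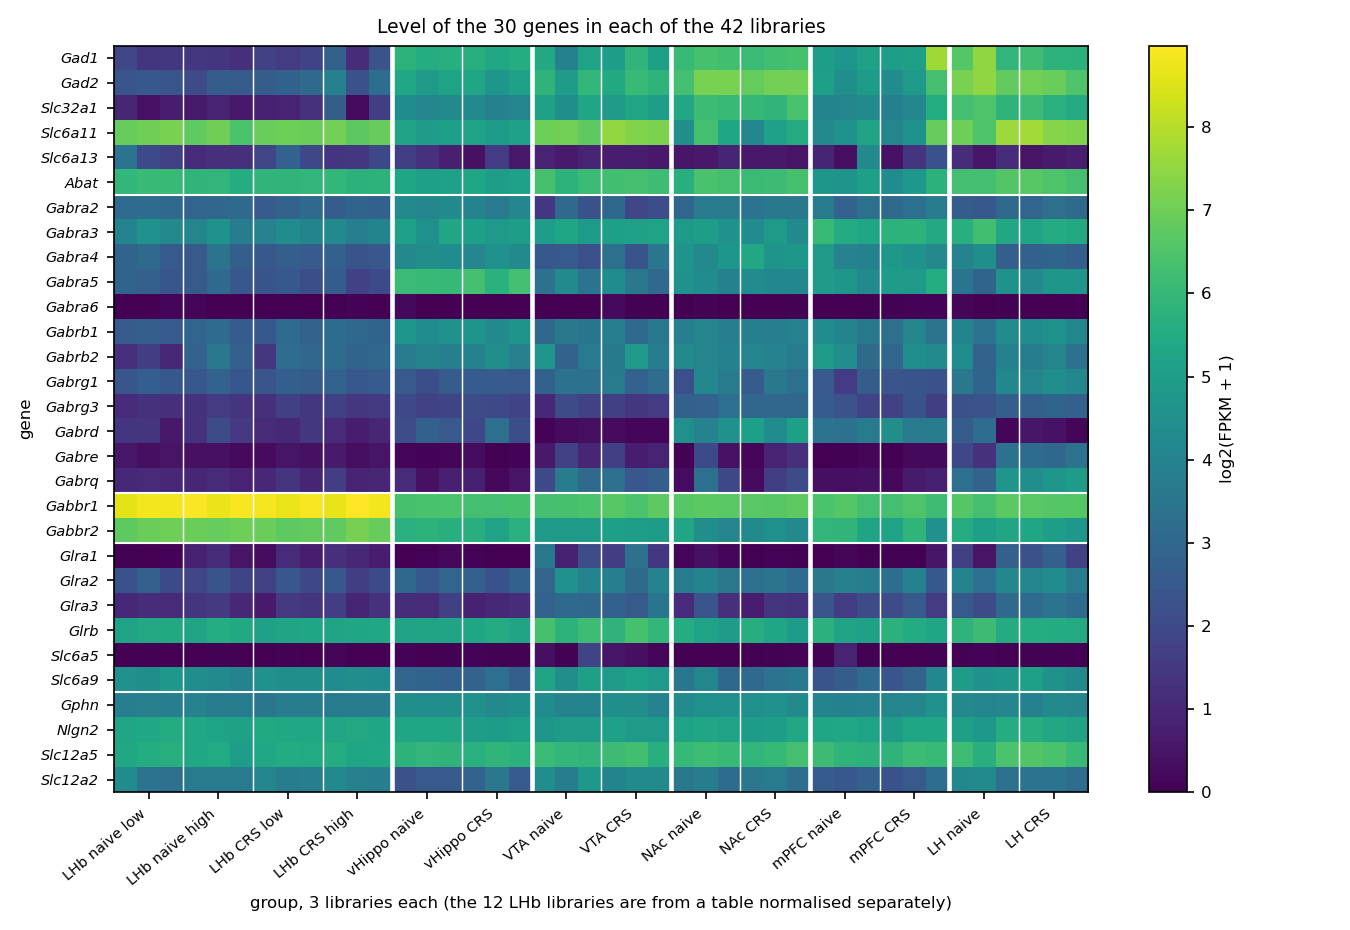
Level of each of the 30 genes (rows, in order of role) in each of the 42 libraries (columns, by region and group), as log2 of FPKM plus 1. Gad1, Gad2 and Slc32a1 are at their darkest in the 12 LHb libraries and Gabbr1 and Gabbr2 at their brightest there, and the Gad1 row is brightest in mPFC at the third CRS library (209 FPKM).

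The regional differences were tested in the 15 naive libraries of the 5 regions other than LHb, with edgeR's quasi-likelihood F test over 22877 genes and Benjamini-Hochberg adjustment at 0.05. In the F test across all 5 regions 21 of the 30 genes passed, against 26.8% of all genes tested. The 9 that did not pass were Gabra6, Gabrb2, Gabrg1, Gabbr1, Slc6a13, Gphn, Glra2, Nlgn2 and Slc12a5. Against the mean of the other 4 regions, VTA had 14 genes past the threshold (18.2% of all genes tested), LH 10 (8.15%), mPFC 10 (12.7%), vHippo 10 (12.3%) and NAc 5 (6.49%). The members that passed were all higher in NAc (4.72% of all genes were higher) and in LH (4.43%). In vHippo 3 were higher (6.71% of all genes) and 7 lower (5.56%), in mPFC 2 were higher (7.44%) and 8 lower (5.29%), and VTA had 9 higher (10.2%) and 5 lower (8.02%). The median log2 fold change over the 30 genes was 0.30 in LH and 0.18 in NAc, where all genes had medians of 0.01 and 0.02, and it was -0.41 in vHippo against -0.01. In this tissue, fewer cells of a type and less RNA per cell cannot be told apart.

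GABA synthesis and vesicular loading were highest in LH and NAc. Gad2 was at 145, 180 and 112 FPKM in the naive LH libraries, at 77.5, 144 and 143 in NAc and at 56.9, 29.9 and 61.2 in VTA. In mPFC it was at 32.6, 21.4 and 28.8 FPKM, and in vHippo at 39.9, 28.0 and 34.7. All LH and NAc libraries were above all others, and the first NAc library was the lowest of those 6. Gad2 was higher than in the other 4 regions by 1.54 ± 0.20 on the log2 scale in LH (SE; adjusted p = 0.000664) and by 1.21 ± 0.20 in NAc (adjusted p = 0.00275). It was lower in mPFC (-1.37 ± 0.24, adjusted p = 0.00276) and in vHippo (-1.03 ± 0.24, adjusted p = 0.0110). Slc32a1, the vesicular transporter gene, was at 78.1, 89.4 and 56.5 FPKM in naive LH libraries, at 40.9, 70.4 and 65.2 in NAc and at 34.6, 21.0 and 37.8 in VTA. It ran from 15.6 to 19.9 FPKM over the 6 naive libraries of vHippo and mPFC. As with Gad2, the LH and NAc libraries lay above all the others. Its log2 differences were 1.41 ± 0.17 in LH (adjusted p = 0.000384), 0.98 ± 0.17 in NAc (adjusted p = 0.00340), -1.17 ± 0.20 in mPFC (adjusted p = 0.00218) and -1.10 ± 0.20 in vHippo (adjusted p = 0.00236). In VTA neither gene passed.

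Gad1, the other decarboxylase gene, separated the regions less. It was at 97.5, 179 and 59.1 FPKM in naive LH libraries and at 65.3, 81.9 and 75.3 in NAc. In vHippo it was at 55.5, 45.7 and 48.5 FPKM, in VTA at 43.0, 14.3 and 36.2 and in mPFC at 31.7, 25.6 and 34.5. The lowest LH library lay below all NAc libraries. Gad1 was called in LH alone, by 1.32 ± 0.27 (adjusted p = 0.0101), and without the second LH library, the one with the high interneuron marker sum, its log2 difference was 0.85 (adjusted p = 0.109). The interneuron sum's part in the result was not tested. The ratio of Gad2 to Gad1 in FPKM had means of 0.699 in vHippo and 0.757 in mPFC and of 2.61 in LHb. The mPFC mean includes the third CRS library at 0.382, and the naive mPFC libraries alone had a mean of 0.899. In vHippo, the call for Gad2 was lost without the second library (adjusted p = 0.0877) or the third (adjusted p = 0.0594).

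In LHb all 3 genes were low in each of the 12 libraries. Gad2 had a mean of 5.94 ± 2.97 FPKM (SD, n = 12), Gad1 of 2.38 ± 1.3 and Slc32a1 of 1.21 ± 1.39. The lowest mean of each in any other region was 33.4 ± 5.63 FPKM for Gad2 in vHippo, 36.2 ± 14.5 for Gad1 in VTA and 17.3 ± 2.15 for Slc32a1 in vHippo (SD, n = 6). For Gad1 the mPFC mean includes the third CRS library at 209 FPKM, and the other 5 mPFC libraries ran from 25.6 to 34.5. No LHb library overlapped any library of the other regions in any of the 3 genes.

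**Figure D2:**
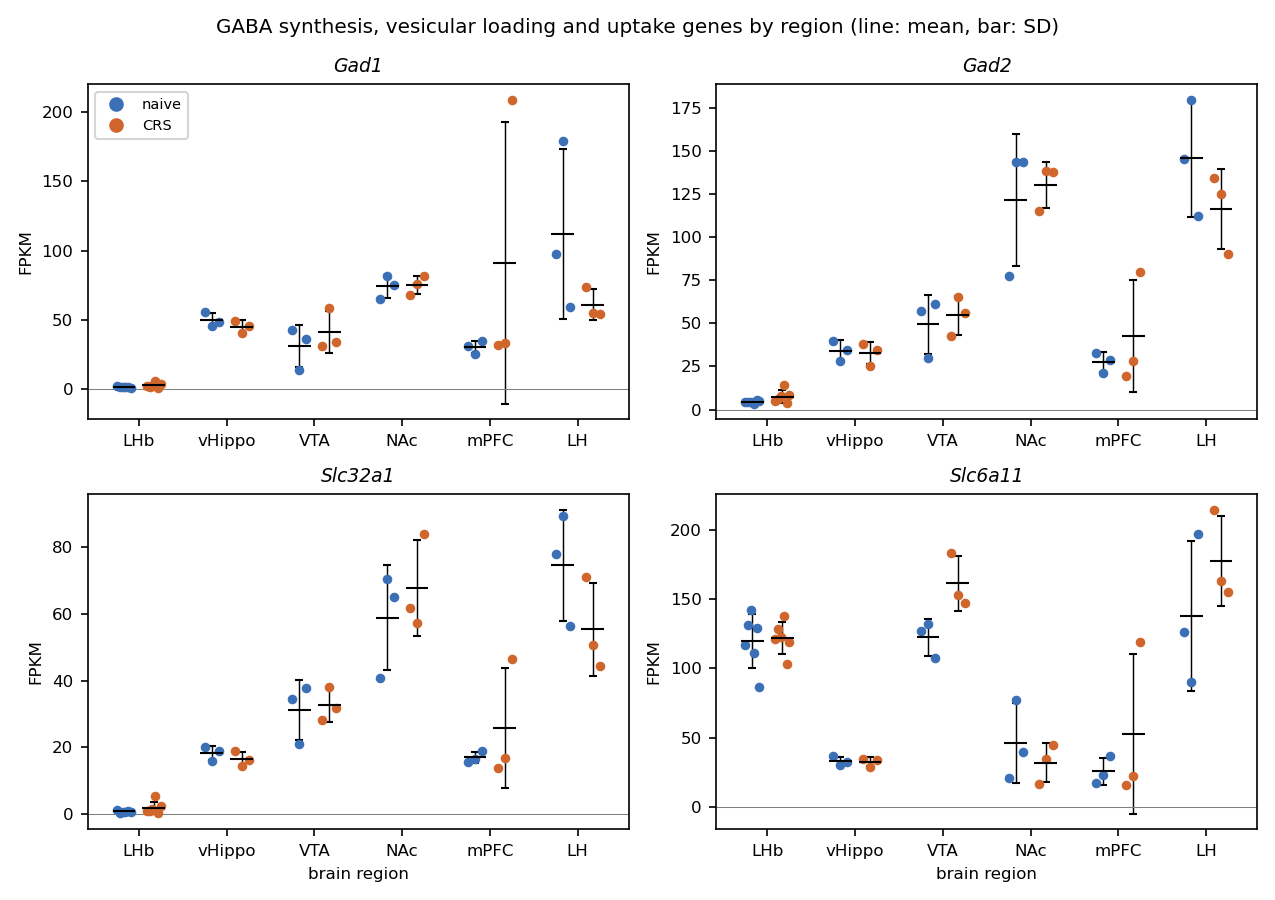
FPKM of Gad1, Gad2, Slc32a1 and Slc6a11, 1 point per library, by region and condition, with horizontal lines for the mean and bars for the SD (n = 6 per condition in LHb, 3 elsewhere). LHb points lie below all others for the first 3 genes, the third CRS library of mPFC lies above the other mPFC points in all 4, and Slc6a11 in LHb runs from 86.8 to 142 FPKM, overlapping LH and VTA.

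Uptake and breakdown did not follow the same order. Slc6a11, a GABA transporter found mainly on astrocytes, was at 126, 90.4 and 197 FPKM in naive LH libraries and at 127, 132 and 107 in VTA. It was at 36.6, 30.3 and 32.3 FPKM in vHippo, at 17.6, 22.8 and 36.6 in mPFC and at 20.8, 77.5 and 39.3 in NAc. Every LH and VTA library lay above every library of the other 3 regions. On the log2 scale Slc6a11 was higher in LH by 1.54 ± 0.27 (adjusted p = 0.00470) and in VTA by 1.36 ± 0.28 (adjusted p = 0.00374), and lower in mPFC (log2 difference -1.42 ± 0.33, adjusted p = 0.0130). The mPFC call was lost without the first library (adjusted p = 0.0885) or the second (adjusted p = 0.0697). In LHb, where the synthesis genes were low, Slc6a11 was at 121 ± 15.3 FPKM (SD, n = 12), against 142 ± 26 in VTA and 158 ± 45.5 in LH (SD, n = 6).

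Abat, the mitochondrial transaminase that breaks GABA down, was called in all 5 regions. It was at 78.4, 78.1 and 94.0 FPKM in naive LH libraries, at 81.0, 54.9 and 69.2 in VTA and at 50.2, 84.8 and 80.3 in NAc. In vHippo it was at 37.5, 33.2 and 34.3 FPKM and in mPFC at 26.1, 24.0 and 32.4. The 9 libraries of LH, VTA and NAc lay above the 6 of vHippo and mPFC. Its log2 differences were 0.81 ± 0.14 in LH (adjusted p = 0.00387), 0.53 ± 0.14 in NAc (adjusted p = 0.0398), 0.50 ± 0.14 in VTA (adjusted p = 0.0256), -0.73 ± 0.15 in vHippo (adjusted p = 0.00706) and -1.11 ± 0.16 in mPFC (adjusted p = 0.000753). The NAc call was lost in 11 of the 15 fits that left out 1 library, with adjusted p from 0.0508 to 0.265, and kept without the first NAc, first VTA, the third LH or the third mPFC library. The VTA call was lost without the first VTA library (adjusted p = 0.233), the third (0.0998) or the second of vHippo (0.0510), and the vHippo call without its second library (0.0569). In LHb Abat was at 58.4 ± 5.25 FPKM (SD, n = 12).

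Slc6a13, a GABA and taurine transporter gene of the meninges and blood vessels, was called in mPFC. The naive mPFC libraries were at 0.899, 0.301 and 17.9 FPKM, and every naive library of the other 4 regions lay between 0.457 and 2.17 FPKM. The third mPFC library alone was high. The call for higher Slc6a13 in mPFC (2.77 ± 0.67, adjusted p = 0.0149) turned to -0.52 (adjusted p = 0.531) without it. In that library leptomeningeal markers summed to 62.9 FPKM and endothelial and pericyte markers to 80.3 FPKM, against 1.35 to 14.8 and 24.2 to 46.2 in the other mPFC libraries. Their part in the result was not tested. In the CRS libraries, at 0.348, 1.60 and 3.86 FPKM in mPFC and from 0.333 to 2.02 in the other 4 regions, Slc6a13 was called higher in mPFC again (1.65, adjusted p = 0.0358). That call was lost, at 0.69 (adjusted p = 0.406), without the third CRS mPFC library, which had the highest leptomeningeal sum of the 3, at 14.8 FPKM.

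Among the alpha subunits of the GABA-A receptor, Gabra2, Gabra3, Gabra4 and Gabra5 passed the F test across regions. Gabra5, a subunit of largely extrasynaptic receptors known for its hippocampal expression, was at 69.6, 67.3 and 63.5 FPKM in naive vHippo libraries. The other 12 naive libraries ran from 6.45 to 29.9 FPKM, so that vHippo stood clear of them all. The log2 difference was 2.00 ± 0.28 (adjusted p = 0.000417). Gabra2 was at 17.9, 16.3 and 18.6 FPKM in vHippo and at 1.78, 7.54 and 3.82 in VTA. It was higher in vHippo by 1.35 ± 0.28 (adjusted p = 0.00611) and lower in VTA, at -1.17 ± 0.33 (adjusted p = 0.0243). The VTA call was lost without the first VTA library (adjusted p = 0.0861) or the third (adjusted p = 0.103).

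Gabra4, which pairs with the delta subunit in extrasynaptic receptors, was at 4.62, 4.87 and 3.63 FPKM in naive VTA libraries and at 23.9, 17.7 and 25.2 in NAc. In LH it was at 15.2, 21.2 and 5.64 FPKM, in vHippo at 17.6, 20.6 and 19.8 and in mPFC at 28.4, 14.6 and 14.5. The VTA libraries were the 3 lowest of the 15. Gabra4 was lower in VTA, at -2.07 ± 0.34 (adjusted p = 0.00103). Gabra3 was among the more abundant alpha genes in every region, with means from 17.2 ± 3.31 FPKM in LHb (SD, n = 12) to 50.3 ± 10.1 in mPFC (SD, n = 6). In naive libraries it passed the F test across regions and no contrast of a region with the other 4, while in CRS libraries it was called higher in mPFC (0.78, adjusted p = 0.00151) and lower in NAc (-0.78, adjusted p = 0.00264). The naive F call was lost without the second LH library (adjusted p = 0.0511) or the third NAc library (adjusted p = 0.0607).

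Within each library the 5 alpha genes Gabra2 to Gabra6 were also expressed as shares of their summed FPKM. Gabra5 took 50.5 ± 4.11% in vHippo (SD, n = 6), with single libraries from 45.3% to 54.8%. Gabra3 took 60.1% in VTA, 57.6% in LH and 50.3% in LHb, and 23.0% in vHippo. Gabra4 had its largest mean share in NAc, at 32.7 ± 8.16%. These shares are of the 5 genes alone and say nothing of other subunits.

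**Figure D3:**
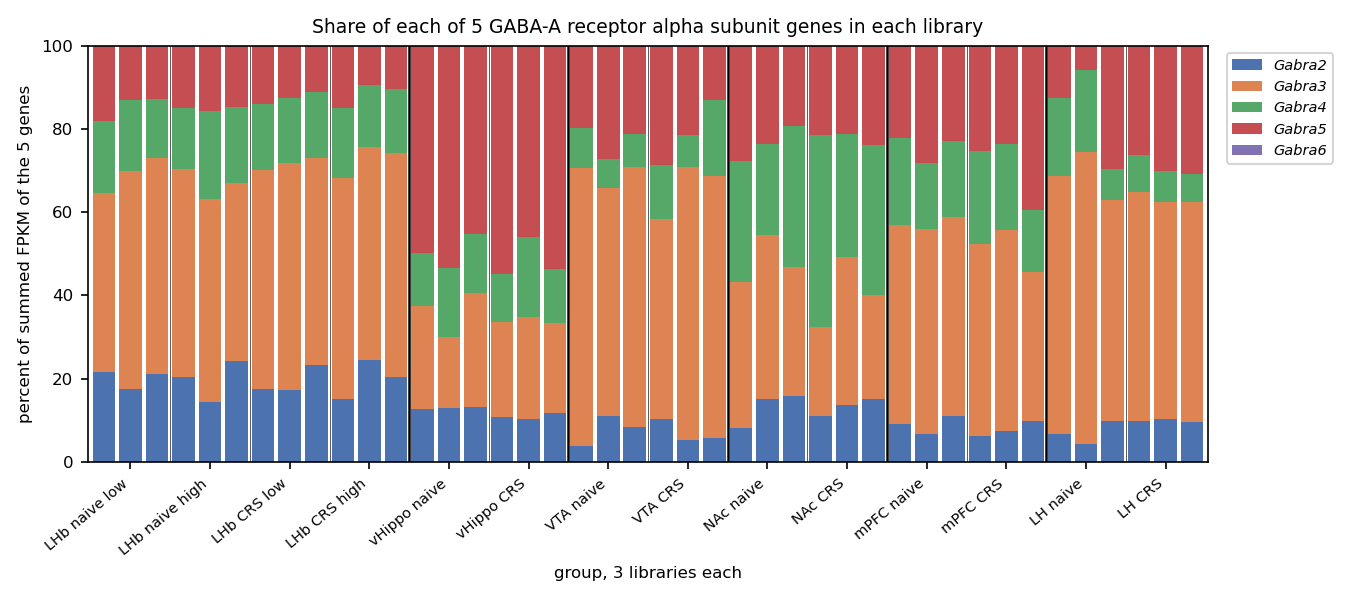
Share (%) of each alpha subunit gene in the summed FPKM of Gabra2, Gabra3, Gabra4, Gabra5 and Gabra6, per library, stacked and grouped by region. Gabra5 takes 45.3% to 54.8% in the vHippo libraries, while Gabra3 has the largest mean share in LH, VTA, LHb and mPFC.

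The delta subunit gene Gabrd, of extrasynaptic receptors that carry tonic inhibition, had a steep regional profile. It was at 22.0, 14.9 and 23.6 FPKM in naive NAc libraries, at 9.83, 9.27 and 12.5 in mPFC and at 3.32, 5.94 and 4.74 in vHippo. In VTA it was at 0.0591, 0.190 and 0.261 FPKM, and in LH at 5.10, 8.30 and 0.114. NAc was above every other library, and the 3 LH libraries spanned from the VTA level to above that of vHippo. Gabrd was lower in VTA, at -5.59 ± 0.95 (adjusted p = 0.00130), and higher in NAc, at 3.01 ± 0.55 (adjusted p = 0.00468). The higher level in mPFC (1.9 ± 0.57, adjusted p = 0.0436) was lost in 11 of the 15 fits that left out 1 library, with adjusted p from 0.0534 to 0.120, and kept without the first NAc, the third VTA, second LH or the third LH library.

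Gabre and Gabrq, the epsilon and theta subunit genes, lie beside Gabra3 on chromosome X and were highest in LH. Gabrq was at 8.73, 6.24 and 24.5 FPKM in naive LH libraries and at 2.97, 12.9 and 7.66 in VTA. It was at 0.318 to 1.14 FPKM in vHippo, 0.270 to 0.329 in mPFC and 0.216, 9.01 and 2.73 in NAc. LH overlapped VTA and NAc but not vHippo or mPFC. Gabrq was higher in LH (3.01 ± 0.59, adjusted p = 0.00849) and in VTA (2.10 ± 0.61, adjusted p = 0.0286) and lower in mPFC (-3.73 ± 0.91, adjusted p = 0.0159). The LH call was lost without the third LH library (adjusted p = 0.0789). The VTA call was lost without the first LH (0.0511), second VTA (0.179) or the third VTA library (0.0853), and the mPFC call without the first (0.0770) or second mPFC library (0.0788). The second naive VTA library, the highest of its group for Gabrq, had the hypothalamic marker sum of 188 FPKM. The part of these markers in the result was not tested.

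Gabre was at 2.86, 1.41 and 9.25 FPKM in naive LH libraries and at 0.541, 2.40 and 0.956 in VTA. In NAc it was at 0.0289, 3.06 and 0.362 FPKM, and no vHippo or mPFC library exceeded 0.107. As with Gabrq, the third LH library was the highest. Gabre was higher in LH (4.02 ± 0.72, adjusted p = 0.00519) and lower in mPFC (-4.20 ± 1.17, adjusted p = 0.0312). Without the third LH library the LH difference was 2.95 (adjusted p = 0.0503). The mPFC call was lost without the first (0.130), second (0.129) or the third mPFC library (0.0527) or the first of vHippo (0.05001).

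The gamma subunit gene Gabrg3 was higher in NAc (1.09 ± 0.25, adjusted p = 0.0171), where naive libraries were at 5.80, 6.04 and 8.82 FPKM, and lower in VTA (-0.92 ± 0.28, adjusted p = 0.0372), where they were at 1.07, 3.30 and 2.30. NAc lay above the other 12 naive libraries, which ran from 1.07 to 5.62 FPKM. The NAc call was lost without the third NAc library (adjusted p = 0.181), as was the F call (0.0555). The VTA call was lost in 7 of 15 fits, those without the first or the third library of VTA or of vHippo, the third of LH or of NAc, or the second of mPFC (adjusted p from 0.0512 to 0.151). Gabrg1 passed no naive contrast and had means from 4.02 ± 1.09 FPKM in mPFC to 14.7 ± 5.09 in LH (SD, n = 6). In CRS libraries Gabrg1 was called higher in LH (1.45, adjusted p = 0.000118) and lower in mPFC (-1.07, adjusted p = 0.00344) and vHippo (-0.76, adjusted p = 0.0268).

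Of the beta subunits, Gabrb1 was at 25.3, 19.9 and 22.4 FPKM in naive vHippo libraries and at 7.29, 11 and 9.96 in VTA. The vHippo libraries were the 3 highest of the 15, and the VTA libraries lay among the lowest with the second of LH at 9.62 FPKM. Gabrb1 was higher in vHippo (0.76 ± 0.19, adjusted p = 0.0186) and lower in VTA (-0.82 ± 0.21, adjusted p = 0.0161). The vHippo call was lost without its first (0.117) or the third library (0.0758), the VTA call without the first (0.0960) or the third of its libraries (0.0545), and the F call without any of those 4 (0.0535 to 0.0748). Gabrb2 did not pass between regions, with naive libraries from 6.21 FPKM in VTA and 6.22 in LH to 28.1 in mPFC.

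Neighbouring genes were compared by the region of their highest mean in naive libraries. On chromosome 5, Gabrg1, Gabra2, Gabra4 and Gabrb1 lie in a row, with 114979 bases between Gabrg1 and Gabra2 and 473899 between Gabra2 and Gabra4, and Gabra4 and Gabrb1 overlap by 196 bases on opposite strands. Their highest naive means were in LH, vHippo, NAc and vHippo in that order. Since it is not stated whether counting used strand, reads from the overlap of Gabra4 and Gabrb1 cannot be told apart. On chromosome 7, Gabra5 was highest in vHippo and Gabrg3, 20483 bases away, in NAc. On chromosome X, Gabre, Gabrq and Gabra3, which lies between them, were all highest in LH. Gabra3 was at 55.6 ± 18.3 FPKM in naive LH and at 49.5 ± 13.8 in naive mPFC (SD, n = 3), and over naive and CRS libraries together its mean was highest in mPFC.

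Of the GABA-B receptor genes, Gabbr1 had region means of 81.1 to 102 FPKM in the 5 regions tested together and did not pass the F test. Gabbr2 had region means of 22.3 to 48.7 FPKM and passed the naive F test, but no naive contrast of 1 region with the other 4. In the CRS libraries of the same regions it was called lower in NAc (-0.87, adjusted p = 0.0244). The naive F call was lost in 11 of the 15 fits that left out 1 library, with adjusted p from 0.0553 to 0.0924. It was kept without the first or second LH, first NAc or the third mPFC library. In LHb, Gabbr1 was at 451 ± 33.4 FPKM and Gabbr2 at 120 ± 9.83 (SD, n = 12), with lowest libraries of 389 and 107 FPKM. No library of another region reached these values. The ratio of Gabbr1 to Gabbr2 was 3.77 ± 0.185 in LHb, within the range of region means from 1.70 in vHippo to 4.97 in NAc. As LHb values come from the separately normalised table, these differences were not tested.

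Glycine receptor genes were highest in VTA and LH. Glra1, the main alpha subunit gene of adult spinal cord and brainstem, was at 11, 0.777 and 3.34 FPKM in naive VTA libraries and at 2.27, 0.387 and 5.76 in LH. No naive library of vHippo, NAc or mPFC exceeded 0.311 FPKM, so both regions lay above these 3 with a wide spread among their own libraries. Glra1 was higher in VTA (4.82 ± 0.82, adjusted p = 0.00129) and in LH (3.69 ± 0.82, adjusted p = 0.0152). The LH call was lost without the first (adjusted p = 0.0529) or the third LH library (adjusted p = 0.132).

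Glra3, another alpha subunit gene, was at 6.11, 7.52 and 6.93 FPKM in naive VTA libraries and at 1.25, 1.15 and 2.23 in vHippo. It was higher in VTA (1.34 ± 0.32, adjusted p = 0.00952) and lower in vHippo (-1.36 ± 0.38, adjusted p = 0.0318). The vHippo call was lost without its first (0.164) or second library (0.172). Glra2, the alpha subunit gene of the developing forebrain, was lower in vHippo (-1.16 ± 0.31, adjusted p = 0.0254), at 7.16, 4.36 and 6.68 FPKM. These overlapped the first VTA library at 6.63 FPKM, and the call was lost without any 1 of the 3 vHippo libraries (0.0709 to 0.158). Glrb, the beta subunit that binds gephyrin, was at 82.6, 55.7 and 73.1 FPKM in VTA and at 29.4 to 70.8 in the other 12 naive libraries. It was higher in VTA (0.74 ± 0.18, adjusted p = 0.0101), a call lost without the first (0.0989) or the third VTA library (0.0530). Its F call was lost without either of these (0.0752 and 0.0625) or the first of vHippo (0.0507).

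Of the glycine transporters, Slc6a9, found mainly on glia, was at 36.5, 20.5 and 33.4 FPKM in naive VTA libraries and at 30.4, 23.4 and 26.2 in LH. In NAc it was at 10.5, 16.3 and 7.21 FPKM, in mPFC at 3.99, 5.28 and 7.74 and in vHippo at 6.57, 6.42 and 5.91. All VTA and LH libraries lay above all others. Slc6a9 was higher in VTA (1.58 ± 0.21, adjusted p = 0.000275) and LH (1.31 ± 0.21, adjusted p = 0.00281) and lower in mPFC (-1.40 ± 0.25, adjusted p = 0.00319) and vHippo (-1.26 ± 0.25, adjusted p = 0.00491).

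Slc6a5, the transporter gene that marks glycinergic neurons, was near 0 in nearly every library outside VTA. Its counts in the naive VTA libraries were 195, 18 and 1455, or 0.305, 0.0373 and 2.63 FPKM. The third library was the highest, and the second was at the level of other regions. The call for higher Slc6a5 in VTA (4.59 ± 1, adjusted p = 0.00589) was lost, at 2.13 (adjusted p = 0.262), without that library, which also had the hindbrain marker sum of 1.81 FPKM, and the F call was lost without it (0.0983) or the second NAc library (0.0537). The part of the hindbrain markers in the result was not tested. The CRS libraries of VTA held 200, 122 and 49 counts, against at most 30 in any other CRS library of the 5 regions, and there Slc6a5 was called higher in VTA again (3.35, adjusted p = 0.00123). The second naive mPFC library held 448 counts of Slc6a5, against at most 18 in the other 5 mPFC libraries, and its hindbrain marker sum was 0.261 FPKM against at most 0.0376.

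The scaffold genes Gphn and Nlgn2 and the chloride exporter Slc12a5 passed no contrast between regions. Slc12a5 had means from 42.2 ± 4.57 FPKM in LHb (SD, n = 12) to 75.0 ± 15.8 in LH (SD, n = 6). Slc12a2, the chloride importer, was at 12.7 to 26.4 FPKM in naive VTA libraries and at 17.2, 18.3 and 9.05 in LH. It was at 3.74, 4.73 and 4.63 FPKM in vHippo and at 5.15, 4.36 and 5.75 in mPFC. The libraries of VTA and LH lay above all of vHippo and mPFC. Slc12a2 was higher in VTA (1.37 ± 0.20, adjusted p = 0.000576) and LH (0.81 ± 0.21, adjusted p = 0.0307) and lower in vHippo (-1.36 ± 0.25, adjusted p = 0.00253) and mPFC (-1.03 ± 0.24, adjusted p = 0.0122). The LH call was lost without the first (0.208) or second LH library (0.160), the first (0.0502) or second of mPFC (0.0531) or the first of vHippo (0.0566). The mPFC call was lost without its first (0.0667) or second library (0.0763). The ratio of Slc12a5 to Slc12a2 was 12.2 in mPFC and 10.6 in vHippo, and 3.34 in LHb and 3.59 in VTA. Single LHb libraries ran from 2.08 to 5.38, and Slc12a2 was highest in the 3 LHb libraries holding choroid plexus markers.

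**Figure D4:**
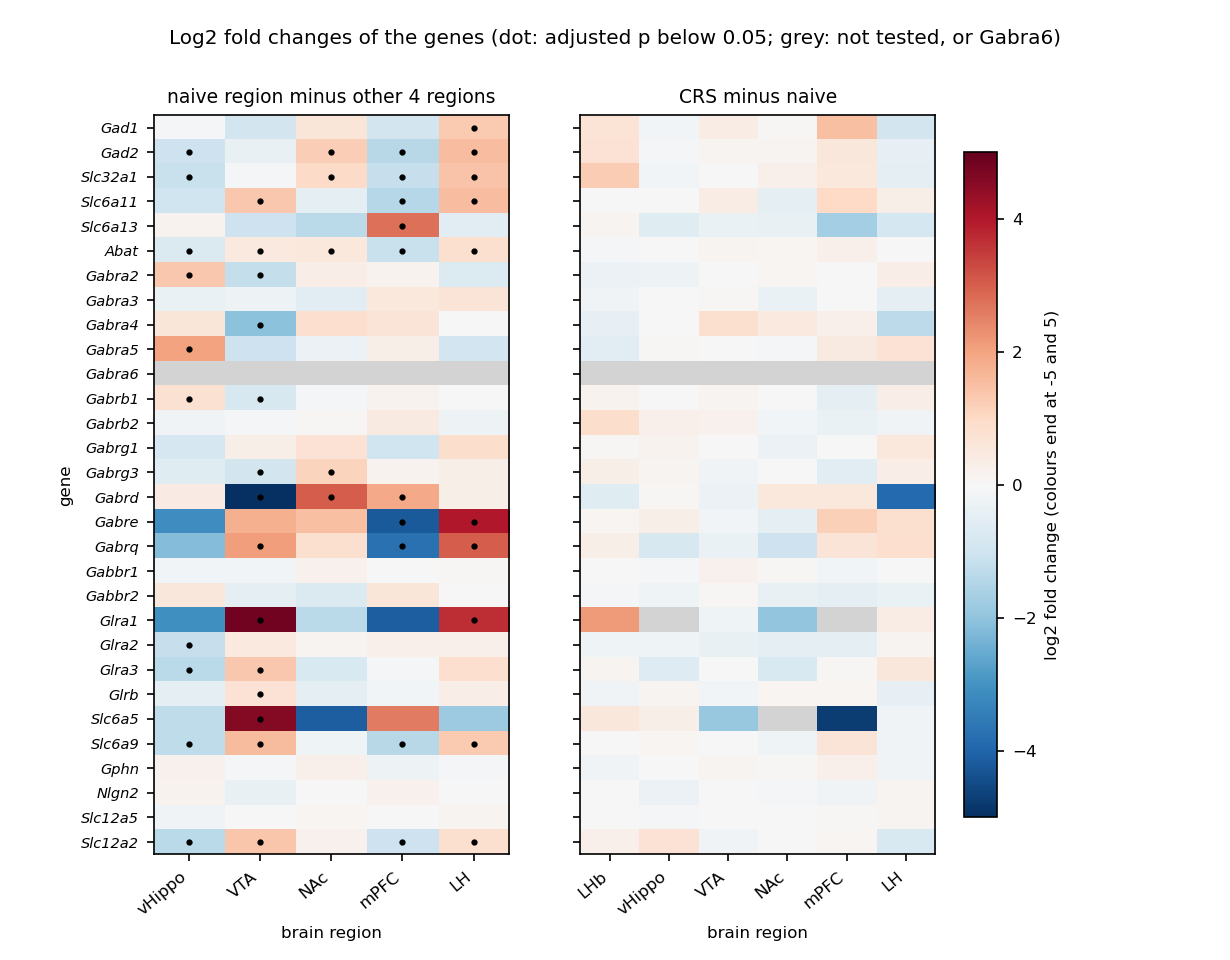
Log2 fold change of each gene (rows) between a region and the mean of the other 4 in naive libraries (left) and between CRS and naive libraries of each of the 6 regions (right), with black dots where the adjusted p was below 0.05. Grey marks genes not tested and Gabra6, and colours end at -5 and 5. The left panel has 14 dots for VTA, 10 each for vHippo, mPFC and LH and 5 for NAc, and the right panel has 0.

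The same contrasts were fitted in the 15 CRS libraries of these regions, which share no library with the naive fit. Of the members called in naive tissue, 13 of 14 in VTA, 9 of 10 in vHippo, 7 of 10 in LH, 6 of 10 in mPFC and 4 of 5 in NAc were called again in the same direction, and 0 in the opposite one. The share called again was not taken over all genes, so these counts have no background and are not particular to the members. The CRS fit called 14 members in VTA (18.6% of all genes), 14 in vHippo (9.02%), 13 in LH (14.6%), 9 in mPFC (12.4%) and 8 in NAc (12.1%). Gabra5 in vHippo had a log2 difference of 1.78 (adjusted p = 9.61e-05), Gabrd in NAc of 4.44 (8.77e-07) and Slc6a9 in VTA of 1.44 (0.00242). In mPFC, where the third CRS library had the high Gad1, the calls for Gad2, Slc32a1, Slc6a9 and Slc6a11 were not made again, and their log2 differences were -0.73, -0.52, -0.65 and -0.46. Without that library they were -1.51, -1.22, -1.41 and -1.84 (adjusted p from 0.000914 to 0.00303), and 14 members were called in mPFC (16.1% of all genes). In LH the calls for Gad1, Slc32a1 and Slc12a2 were not made again, at log2 differences of -0.05, 0.75 and -0.09. Leaving out the second naive LH, first naive NAc and second naive VTA libraries, which stood apart on the regional markers given above, left 22 of the 30 genes past the F test (26.8% of all genes). It left 15 past each of the contrasts of vHippo (14.1%), VTA (17.1%) and mPFC (15.9%), and 10 past each of those of NAc (7.71%) and LH (5.24%).

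Other genes of the same pathways also differed between naive regions. In the F test, which 26.8% of all genes passed, 12 of 20 genes of inhibitory synapse organisation and receptor trafficking passed, as did 8 of 11 partners of the GABA-B receptor, 7 of 11 genes of GABA and glycine metabolism, 7 of 11 of chloride regulation and 1 of the 4 tested rho, pi or further glycine receptor subunits. Kctd12, an auxiliary subunit that speeds desensitisation of GABA-B currents, was higher in vHippo (1.2 ± 0.13, adjusted p = 8.62e-05). Kctd16, another auxiliary subunit, was lower in VTA (-1.95 ± 0.30, adjusted p = 0.000763), and Kctd8 was higher in NAc (1.14 ± 0.19, adjusted p = 0.00274). Aldh1a1, an aldehyde dehydrogenase of dopamine neurons linked to an alternative route of GABA synthesis, was higher in VTA (3.91 ± 0.40, adjusted p = 5.24e-05). Slitrk3, an adhesion protein of inhibitory synapses, was higher in vHippo (1.2 ± 0.13, adjusted p = 4.88e-05), and Igsf9b, another, in mPFC (1.34 ± 0.17, adjusted p = 0.000363).

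In LHb the question was which of these genes changed with stress and with FST class. Gabrb2 and Glra1 were lowest in naive mice with low FST scores and higher in the other groups. Gabrb2 (chromosome 11, 42419757 to 42629028, plus strand, GRCm38) was at 1.36, 2.15 and 1.07 FPKM in naive low libraries and at 6.12, 10.7 and 5.82 in naive high ones. It was at 1.68, 8.35 and 6.87 FPKM in CRS low and at 8.06, 6.43 and 6.98 in CRS high libraries. Naive low overlapped only CRS low, by the first library of the latter. Glra1 (chromosome 11, 55514238 to 55608198, minus strand) was at 0.0498, 0 and 0.0719 FPKM in naive low libraries, from 10, 0 and 12 counts, and at 0.778, 1.21 and 0.374 in naive high ones. It was at 0.232, 1.16 and 0.606 FPKM in CRS low and at 1.29, 1.03 and 0.648 in CRS high libraries. All 9 libraries of the other groups lay above all 3 of naive low.

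Between naive high and naive low 2 of the 30 genes passed, both higher, against 3.07% of all 23266 genes tested (2.69% higher). Glra1 differed by 4.27 ± 0.86 on the log2 scale (adjusted p = 0.0189) and Gabrb2 by 2.35 ± 0.48 (adjusted p = 0.0197). Both calls were lost without the second naive high library (adjusted p = 0.0615 for Glra1 and 0.0762 for Gabrb2) or the first naive low library (0.0672 and 0.0816), and that of Gabrb2 also without the third naive low library (0.0960). Slc6a13 was at 9.79, 3.07 and 2.36 FPKM in naive low and at 1.11, 1.31 and 1.32 in naive high libraries, without overlap, and its difference of -1.98 ± 0.50 did not pass (adjusted p = 0.0549). The first naive low library, at 9.79 FPKM, had choroid plexus markers summing to 7051 FPKM and leptomeningeal markers to 72.7 FPKM, and their part in the result was not tested. Endothelial and pericyte markers, of which 4 of 6 passed as lower in naive high mice, summed to 45.8 to 73.0 FPKM in naive low and to 30.8 to 33.4 in naive high libraries. Astrocyte markers (307 to 334 against 255 to 306 FPKM), microglial markers (39.0 to 45.5 against 32.5 to 36.7 FPKM) and oligodendrocyte precursor markers (33.8 to 35.7 against 27.7 to 33.0) did not overlap between these groups either, and the part of all these was not tested. The median log2 difference over the 30 genes was 0.03, against -0.02 over all genes.

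CRS high mice were compared with naive low mice, and 2 genes passed again, both higher, against 3.67% of all genes (3.32% higher). Glra1 differed by 4.57 ± 0.87 (adjusted p = 0.0114) and Gabrb2 by 2.24 ± 0.48 (adjusted p = 0.0212). In CRS high libraries endothelial and pericyte markers summed to 34.0 to 39.98 FPKM, oligodendrocyte markers to 918 to 1109 against 1136 to 1242 in naive low, precursor markers to 28.1 to 32.5 and interneuron markers to 52.9 to 57.6 against 40.3 to 48.4, all without overlap, and their part was not tested. The Gabrb2 call was lost without the first, second or the third CRS high library (adjusted p = 0.0619, 0.0589 and 0.0529) or the first or the third naive low library (0.0825 and 0.112). Between CRS low and naive low 1 gene passed, against 2.19% of all genes (2.11% higher), which was Glra1 (3.98 ± 0.85, adjusted p = 0.0303), and Gabrb2 did not (1.87 ± 0.47, adjusted p = 0.0698). That Glra1 call was lost without the second (0.118) or the third CRS low library (0.0672), or the first (0.0926) or the third naive low library (0.0690). All these comparisons with naive low share the same 3 control libraries, so they are not independent of each other. Both CRS groups also differed from naive low in immobility (over 110 s and 50 to 110 s against under 50 s). Stress and immobility cannot be told apart in these comparisons.

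These calls depended on which libraries entered the fit. Without the 4 libraries holding pancreatic transcripts 0 of the 30 genes were called in any of the 3 comparisons with naive low, where 0.542% (naive high), 0.224% (CRS high) and 0.42% (CRS low) of all genes were. The log2 differences were then 4.61 for Glra1 (adjusted p = 0.0735) and 2.51 for Gabrb2 (0.110) between naive high and naive low, 4.96 (0.109) and 2.41 (0.254) between CRS high and naive low, and 3.34 for Glra1 (0.273) between CRS low and naive low. Without the 3 libraries holding choroid plexus transcripts 3 genes were called in each of the 3 comparisons, namely Gabrb2, Glra1 and Slc12a2, where 2.86% (naive high), 2.82% (CRS high) and 2.38% (CRS low) of all genes were called. Genes called higher between naive high and naive low had a median longest transcript of 6256 nucleotides against 2741 for genes not called, and the values were 3989 for Gabrb2 and 2390 for Glra1. The part of transcript length in the result was not tested.

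**Figure D5:**
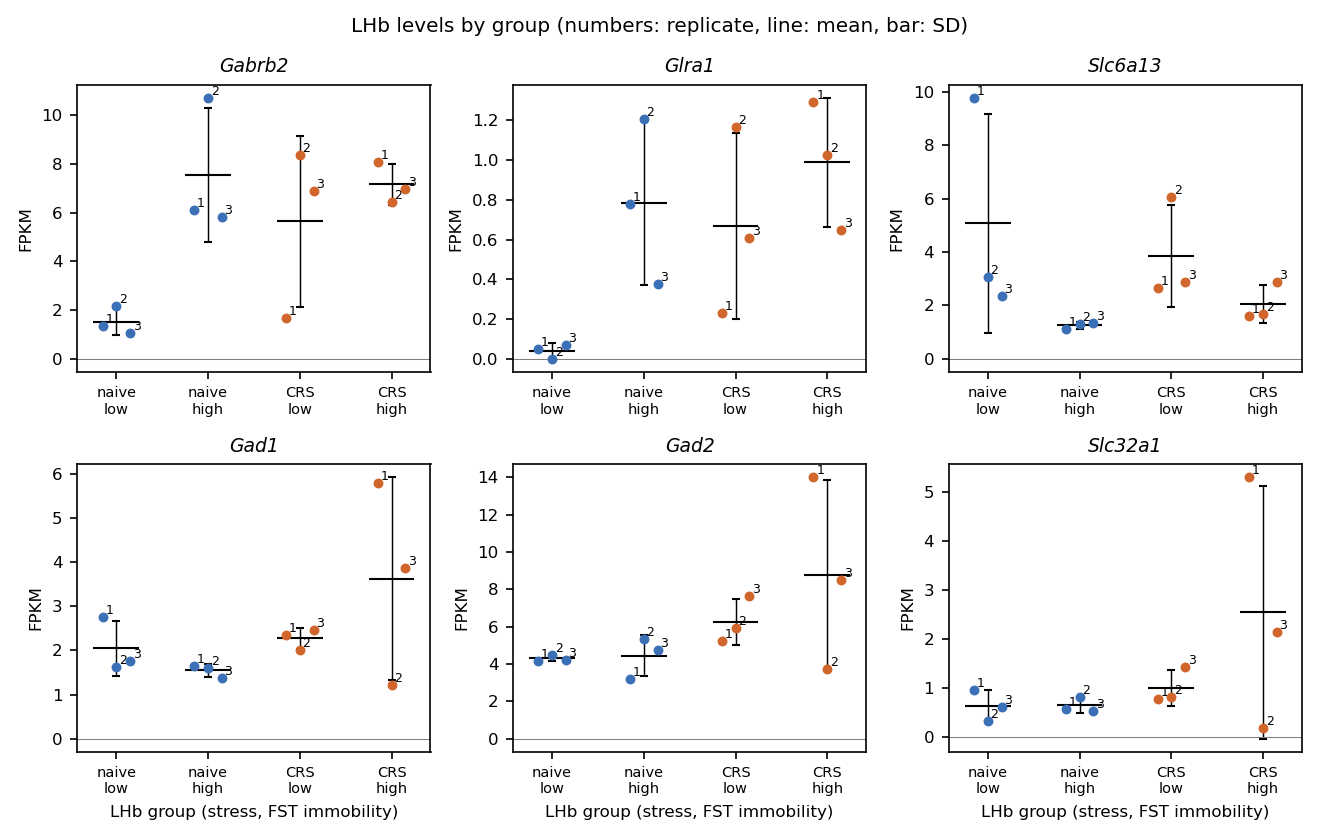
FPKM of 6 genes per LHb library (points, numbered by replicate) in the 4 groups defined by stress and FST class, with horizontal lines for the group mean and bars for the SD (n = 3). Gabrb2 and Glra1 are lowest in the naive low group, with the first CRS low library of Gabrb2 at 1.68 FPKM beside them, and Slc32a1 runs from 0.197 to 5.29 FPKM within the CRS high group.

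Over both FST classes, CRS against naive gave 0 of 30 genes past the threshold in LHb, against 1.17% of all genes, with edgeR's quasi-likelihood test. At an unadjusted p below 0.05 there were 10 genes (33.3%), where all genes had 12.7%, and DESeq2 called 1, Glra1. Glra1 had a log2 difference of 2.14 ± 0.55 (adjusted p = 0.104), Gphn of -0.17 ± 0.06 (adjusted p = 0.219) and Gabrb2 of 0.88 ± 0.32 (adjusted p = 0.282). Without the first CRS low library, in which Gabrb2 was at 1.68 FPKM and choroid plexus markers summed to 4559 FPKM, both Glra1 (2.35, adjusted p = 0.0425) and Gabrb2 (1.10, adjusted p = 0.0196) passed. The part of the choroid plexus transcripts was not tested.

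The LHb genes of GABA synthesis were uneven among CRS high mice. Slc32a1 was at 5.29, 0.197 and 2.15 FPKM in CRS high, at 0.772, 0.826 and 1.42 in CRS low, at 0.581, 0.833 and 0.535 in naive high and at 0.969, 0.339 and 0.609 in naive low libraries. The first and the third CRS high libraries were the highest of the 12 and the second the lowest. Gad2 was at 14, 3.76 and 8.52 FPKM in CRS high libraries and from 3.21 to 7.63 in the other 9. Gad1 was at 5.80, 1.23 and 3.86 FPKM in CRS high libraries and from 1.38 to 2.77 in the other 9. For both, the first and the third CRS high libraries were above all others. The summed level of 14 interneuron markers ran from 52.9 to 57.6 FPKM in CRS high and from 36.4 to 59.6 over the other 9 libraries. None of these genes passed in CRS against naive, and Slc32a1 had a log2 difference of 1.29 ± 0.54 (adjusted p = 0.349).

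Within the CRS mice, high against low FST scores gave 0 of the 30 genes, with 0% of all genes past the threshold. At an unadjusted p below 0.05 there were 0 of the 30, against 2.12% of all genes. DESeq2 also called 0. The smallest p-values were those of Slc6a13 (-0.89 ± 0.48) and Slc32a1 (1.33 ± 0.76), each with an adjusted p of 1. CRS high against naive high likewise gave 0 (0% of all genes, 0 by DESeq2), with Gabrd at -1.31 ± 0.43 and Gad1 at 1.19 ± 0.40 (adjusted p = 0.845). At an unadjusted p below 0.05 there were 5 members (16.7%), against 5.49% of all genes. Gabrd was at 1.15, 0.612 and 0.932 FPKM in CRS high and at 1.5, 3.19 and 1.79 in naive high libraries, without overlap. The difference between the FST effects in CRS and in naive mice was tested as an interaction. High and low were divided at 110 s in CRS and at 50 s in naive mice, so the interaction sets unlike classes side by side. CRS low (50 to 110 s) covers the range of naive high (50 to 80 s), and these groups were not compared. The interaction gave 0 of 30 genes, against 0.202% of all genes, with Glra1 at -3.68 ± 1.09 (adjusted p = 0.327) and Gabrb2 at -1.99 ± 0.65 (adjusted p = 0.417). There were 3 members (10%) at an unadjusted p below 0.05, against 6.74% of all genes, and DESeq2 called Glra1. Without the first CRS low library the interaction for Gabrb2 passed (-2.43, adjusted p = 0.0215).

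In the other 5 regions no gene of any kind passed between CRS and naive libraries, so 0% of all genes tested and 0 members were called in each. Between 28 and 29 of the 30 genes were tested per region. At an unadjusted p below 0.05 there were 6 members in LH (20.7%, against 9.38% of all genes) and 3 in vHippo (10.7%, against 6.58%). There were 2 in VTA (6.9%, against 1.61%) and 1 each in NAc and mPFC (3.57%, against 2.18% and 1.56%). DESeq2 called 1 member, in LH. In vHippo, Nlgn2 was at 38.7, 38.8 and 39.1 FPKM in naive and at 31.9, 30.1 and 33.7 in CRS libraries. The groups did not overlap, and the log2 difference was -0.30 ± 0.08 (adjusted p = 0.750). In VTA, Slc6a11 was at 127, 132 and 107 FPKM in naive and at 184, 153 and 148 in CRS libraries, again without overlap (0.36 ± 0.14, adjusted p = 1). In NAc, Glra2 was at 12.1, 15.3 and 10.9 FPKM in naive and at 8.86, 10.01 and 7.87 in CRS libraries without overlap (-0.48 ± 0.15, adjusted p = 1). Slc12a2, the other member of smallest p in vHippo, had 2772, 3723 and 3670 counts in naive and 4132, 7097 and 3443 in CRS libraries. These CRS libraries had lower total counts. Gabra4 was the other in VTA, with 2483, 1900 and 1696 counts in naive and 3550, 1494 and 3699 in CRS libraries. Gabrd was the other in NAc, with 3672, 2802 and 4312 counts in naive and 5609, 3212 and 6648 in CRS libraries. Gabra4 and Gabrd overlapped between naive and CRS.

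In mPFC, Gad1 was at 31.7, 25.6 and 34.5 FPKM in naive and at 31.8, 33.2 and 209 in CRS libraries. Its log2 difference of 1.52 ± 0.67 (adjusted p = 1) became 0.09 ± 0.21 without the third CRS library. That library was also the highest of the 6 for Gad2 (79.7 FPKM against 19.4 to 32.6), Slc32a1 (46.4 against 13.7 to 18.9), Slc6a11 (119 against 16.1 to 36.6) and Abat (54.3 against 19.8 to 32.4). Its interneuron markers summed to 238 FPKM against 286 to 381, and its dopamine neuron markers to 54.0 FPKM against 4.52 to 15.7. The part of these markers in the result was not tested. Slc6a5 had a log2 difference of -4.75 ± 1.65 there (adjusted p = 1), which rested on the 448 counts of the second naive library.

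In LH, Gabrd and Gabra4 were high in 2 of the 3 naive libraries. Gabrd was at 5.10, 8.30 and 0.114 FPKM in naive and at 0.468, 0.356 and 0.0979 in CRS libraries. Gabra4 was at 15.2, 21.2 and 5.64 FPKM in naive and at 5.91, 6.43 and 5.52 in CRS libraries. In both genes the third naive library lay within the range of CRS. The log2 differences were -3.90 ± 1.21 for Gabrd (adjusted p = 0.456) and -1.31 ± 0.39 for Gabra4. Without the third naive library 6 members passed. Gabrd (-4.46, adjusted p = 0.0102), Gabra4 (-1.68, adjusted p = 0.00529) and Slc12a2 (-1.01, adjusted p = 0.0152) were then lower, and Gabra5 (1.38, adjusted p = 0.0343), Gabre (1.88, adjusted p = 0.0278) and Gabrq (1.67, adjusted p = 0.0140) higher, among 760 genes of any kind (3.59%). Oligodendrocyte markers summed to 2029, 2167 and 933 FPKM in the naive libraries and to 632 to 839 in the CRS libraries. Subcortical excitatory markers summed to 96.9, 81.7 and 59.8 FPKM in naive and to 48.1 to 58.9 in CRS libraries, so both sums were also highest in the first and second naive libraries. Their part in the result was not tested.

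Whether the CRS effect differed between the 5 regions was tested in a single fit of 30 libraries. It gave 0 of 30 members and 0% of 24244 genes, and DESeq2 called 0 members. At an unadjusted p below 0.05 there were 6 members (20%), against 4.43% of all genes. The members of smallest p were Gabrd and Gabra4. Without the third naive LH library, Gabrd passed (adjusted p = 0.0171).

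Of the wider pathway genes, 2 passed in LHb, where the shares of all genes called were 1.17% in CRS against naive, 3.67% in CRS high and 2.19% in CRS low against naive low and 3.07% in naive high against naive low. Wnk1, a kinase that regulates chloride cotransporters, was higher in CRS than in naive mice (0.38 ± 0.07, adjusted p = 0.0315), in CRS high than in naive low mice (0.60 ± 0.11, adjusted p = 0.00699) and in CRS low than in naive low mice (0.55 ± 0.11, adjusted p = 0.0167). Wnk1 was 1 of 11 genes of chloride regulation, and the other 10 did not pass in these comparisons. Without the 4 libraries holding pancreatic transcripts, 0.00786% of all genes were called in CRS against naive. Genes called higher in CRS than in naive mice had a median longest transcript of 7183 nucleotides, against 2764 for genes not called. The part of either in the Wnk1 calls was not tested, and fits with libraries left out are not given for the wider pathway genes. Shisa7, an auxiliary protein of GABA-A receptors, was lower in naive high than in naive low mice (-0.47 ± 0.11, adjusted p = 0.0359), and was 1 of 20 genes of synapse organisation and trafficking. The lists of GABA-B partners (11 genes) and of GABA and glycine metabolism (11 genes) had 0 genes past the threshold in every LHb comparison.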

How the data were processed

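Counts and FPKM of poly(A) RNA from 42 libraries were used as deposited. Per the file headers, the authors deposited whole-number counts and, beside them, FPKM for each gene. The LHb libraries and the 5 other regions are in separate tables. The submitters' processing notes name cutadapt 1.9, HISAT2 2.0.4, StringTie 1.3.4d, edgeR and GRCm39. How reads were counted, and whether strand was used, is not given in the sources used here. Starts of genes were the same as in GENCODE M21 (GRCm38) for 99.519% of 40748 matched genes of the 5-region table, including all 30 members, and for 2.181% of 34900 in the LHb table, so coordinates are from the former, as GRCm38. Also, 18 count columns fitted no sample's label and were left out. Of the LHb rows, 1588 carried an ID without a symbol and were kept.

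Tests on the deposited counts used the quasi-likelihood F test of edgeR 4.0.16 (under R 4.3.3), two-sided, after filterByExpr and with TMM scaling, and p-values were adjusted over all genes tested by Benjamini-Hochberg, at a threshold of 0.05. All 12 LHb libraries were in a single fit with 4 group means, each other region was fitted alone for CRS against naive, and the 15 naive libraries of the 5 regions were fitted together. Every adjusted p is from this test unless DESeq2 1.42.0 is named. Log2 fold changes carry the standard error of the fit, and FPKM means the SD over libraries. The fits were tested on simulated data. Intervals are not given for single counts, and errors cover the spread between these libraries only. In each comparison up to 6 members past the threshold were named per direction by smallest p, or the 2 of smallest p where none passed, and further members were added so that all 30 are accounted for. Up to 3 genes of each wider pathway list were named. The members and lists were chosen with earlier results of these data known. The alternatives tried are given in the closing section. Promoters were read from RefSeq (GRCm38.p6).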

Additional observations from a re-analysis of the deposited data

How the results depend on the processing

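Of the counts of members called, those for CRS high against CRS low and against naive high in LHb, and for CRS against naive in vHippo, VTA, NAc and mPFC, stayed at 0 under every alternative run. DESeq2 in place of edgeR called 1 member in LHb CRS against naive (edgeR 0), 4 between naive high and naive low (edgeR 2), 2 between CRS low and naive low (edgeR 1), 1 in the interaction of FST class and stress, 1 in LH CRS against naive and 9 in NAc against the other regions (edgeR 5). The 4 between naive high and naive low were Glra1 and Gabrb2, higher, and Slc6a13 (-1.97, adjusted p = 0.0105) and Slc6a9 (-0.32, adjusted p = 0.0338), lower. Without a filter on low counts, CRS low against naive low gave 0. Fitting all 30 libraries with condition as a term gave 17 members in vHippo, 14 in NAc and 16 in LH. The CRS libraries alone gave 8 in NAc (12.1% of all genes). Shares of all genes are not given here for the counts by DESeq2, without the filter, from all 30 libraries or with 1 library left out. A change in those counts is therefore not read as particular to the members. The following alternatives were chosen after seeing the data. Without the pancreatic libraries the comparisons of naive high, CRS high and CRS low with naive low each gave 0 (0.542%, 0.224% and 0.42% of all genes). Without the choroid plexus libraries CRS low against naive low gave 3 (2.38% of all genes). CRS against naive then gave 1 (1.39% of all genes), namely Slc12a2 (0.35, adjusted p = 0.0303). Without the 3 libraries off their regional markers NAc gave 10 (7.71% of all genes). The CRS libraries without the mPFC library of high Gad1 gave 16 in vHippo (10.8% of all genes) and 12 in NAc (15.8%). Leaving out 1 library at a time gave 0 to 2 members in LHb CRS against naive, 0 to 3 in naive high against naive low, 1 to 4 in CRS high against naive low, 0 to 2 in CRS low against naive low and 0 to 1 in the interaction. It gave 0 to 6 in LH CRS against naive, 0 to 1 in the CRS effect by region and 17 to 22 in the naive F test. In the contrasts of naive regions it gave 6 to 14 in vHippo, 7 to 16 in VTA, 3 to 6 in NAc, 5 to 12 in mPFC and 8 to 11 in LH. The 1 reversed value was the log2 difference of Slc6a13 in mPFC, which ran from -0.52 without the third naive mPFC library to 3.35 over the fits that left out 1 library. The causes of these differences were not tested.

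Replicate numbers gave no clear pairing of the samples, which does not exclude one. Over 21 pairs of groups, correlations of the deviations of same-numbered libraries ran from -0.225 to 0.253, and in 0 pairs were all over 0.1. The same-numbered library was the best match for all 3 between naive high and naive low LHb, and between naive LH and vHippo. It was for 0 between naive and CRS VTA, naive VTA and mPFC, and naive mPFC and vHippo. With the replicate block, CRS low against naive low in LHb gave 0 members (Glra1 adjusted p = 0.0587) where the fit without it gave 1. With 3 libraries a group, the limit on these comparisons is the spread between libraries, and for Gabra6, Slc6a5 and Glra1, whose naive low LHb libraries held 10, 0 and 12 counts, it is also the low counts.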
